A study of Rattus norvegicus with 15 samples.

Results

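The interleukins and their receptors were taken as every gene of the deposited table whose symbol begins with Il followed by a digit, which gave 72 of 22468 genes. They comprised 29 ligands, 36 signalling receptor subunits, 3 decoy receptors, 3 inhibitors and 1 enzyme named for its induction by interleukin 4. The measurements come from RNA sequencing of whole bone of female Sprague-Dawley rats after poly(A) selection, in 15 libraries. Blank rats had no treatment, and Model rats were ovariectomized, the operation that removes the main source of oestrogen and is used as a rat model of osteoporosis. The SYT, YJT and YJZYT groups were also ovariectomized, and what else was done to them is given by those codes alone. The series title names Zhuanggu Zhitong Capsule, a herbal medicine, without tying it to a group. Each group had 3 libraries, named here by group and replicate (SYT1 is replicate 1 of SYT), and no sham-operated group or animal age is described. Nothing says that replicates came from separate animals, so a p-value measures the spread between these samples alone, which may be technical. Il7r and Il17a are not analysed here.

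Interleukins are secreted proteins through which immune, stromal and bone cells act on each other, and most of them signal through receptor pairs that share a subunit with relatives. In bone, IL-1, IL-6 and IL-17 are known to favour osteoclast formation, largely through RANKL made by cells of the osteoblast lineage, while IL-4 and IL-10 restrain it. Because marrow is the main site of blood cell formation, whole bone also carries the receptors of neutrophils, lymphocyte precursors and macrophages.

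Levels of different genes were compared in FPKM, which divides by transcript length. Of the 72 genes, 11 had a mean of 10 FPKM or more over the 15 libraries, 25 lay between 1 and 10, 17 between 0.1 and 1, and 19 under 0.1. Receptors were the more abundant class, with 20 of 36 at 1 FPKM or more, against 11 of 29 ligands, and 13 ligands lay under 0.1 FPKM. A count above 0 in all 15 libraries was found for 46 genes. The low-count filter kept 55 genes for testing, namely 32 receptors, 17 ligands, all 3 decoy receptors, 2 inhibitors and the enzyme. The 17 left out, among them Il2, Il10, Il12b, Il17f, Il22 and Il27, all averaged fewer than 10 counts a library. Library totals ran from 64472700 to 74255667 counts, so that 3 counts correspond to about 0.0397 to 0.055 CPM (counts scaled to the library total and by TMM factors).

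Il17ra, the receptor subunit shared by IL-17 family cytokines (chromosome 4, 152995865 to 153018394 in the coordinates of the table, on a build not given in the sources used here), stood far above the rest at a mean of 108.1 FPKM, with 42.9 in the lowest library and 164 in the highest. Only 545 of all genes in the table had a mean level at or above it. The next levels belonged to the IL-1 system: Il1r2, a decoy receptor that binds IL-1 without signalling, averaged 22.3 FPKM, and Il1rn, the receptor antagonist, 16.8. The other genes among the 10 highest were Il6r at 16.3, Il21r at 15.3, Il16 at 15.2, Il3ra at 14.7, Il4r at 14.3, Il10rb at 13 and Il1b at 11.6 FPKM. From Il1rn to Il4r these means differed by less than the range of any of them over libraries, so their order carries little information. Reads of Il3ra can be shared with the overlapping gene Asmtl, since the strand setting of the counting is not stated.

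Ligands other than Il16 and Il1b were scarce. Il17b averaged 4.83 FPKM, Il18 4.03, Il15 3.70, Il7 2.45, Il33 1.88 and Il34 1.28. Il1a and Il6 lay lower, at means of 0.326 and 0.117 FPKM, while Il11, which signals through the same gp130 subunit as IL-6, averaged 0.0792. Il10, an anti-inflammatory ligand, was listed at 0 in 8 of 15 libraries and averaged 0.0558 FPKM. Il18 overlaps Bco2, whose mean count of 502.9 exceeded the 319 of Il18, so the values of Il18 may include reads of its neighbour.

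**Figure D1:**
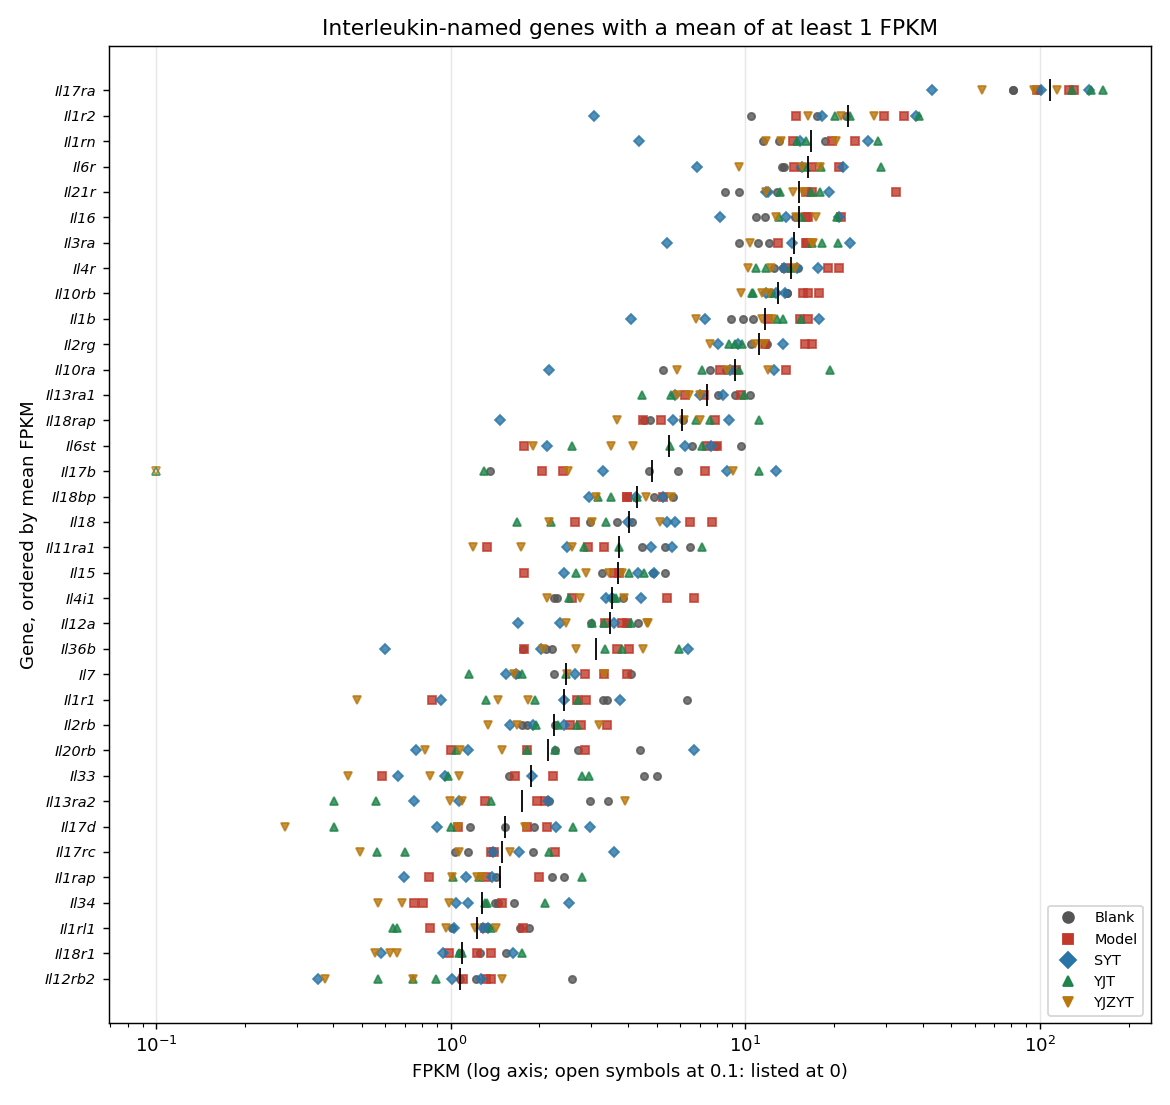
Level of each interleukin or receptor gene with a mean of at least 1 FPKM, in FPKM on a log axis, with 1 point for each of the 15 libraries coloured and shaped by group, and a tick at the mean. Open symbols stand for values listed at 0. Il17ra lies above all the others, from 42.9 to 164 FPKM, and Il1r2 spans 3.06 to 39.0, with Il17b listed at 0 in YJT3 and YJZYT3.

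The plot of levels by library shows 1 gene on each row, and libraries of the same group often lie far apart. Of the 36 genes at 1 FPKM or more, 13 had their lowest TMM-scaled value in SYT3 and 13 their highest in SYT1, both of the SYT group. The steadiest was Il10rb, whose highest library was 1.66 times the lowest. Il18bp (1.82 times), which binds and blocks IL-18, and Il2rg (1.9 times), the common gamma chain, came next. At the other end were Il1r2 at 14.4 times, Il36b at 12.3 and Il1r1, the signalling IL-1 receptor, at 12.2.

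Genes of the IL-1 system with high levels moved together across libraries. In TMM-scaled CPM, the scale used from here on for values of 1 gene across libraries, Il1r2 stood at 32.7, 28.8 and 15.4 CPM in Blank, 51.7, 47.5 and 22.6 in Model, 77.5, 31.3 and 5.37 in SYT, 34.2, 43.4 and 59.6 in YJT and 34.8, 27.3 and 48.9 in YJZYT. The receptor antagonist Il1rn stood at 39.4, 26.8 and 27.2 CPM in Blank, 49.9, 44.8 and 31.2 in Model, 75.6, 37.2 and 10.8 in SYT, 38.7, 40.7 and 61.4 in YJT and 30.7, 27.9 and 51.5 in YJZYT. The ligand Il1b stood at 15.3, 15.6 and 12.8 CPM in Blank, 22.3, 25.5 and 17.6 in Model, 35.3, 12.1 and 6.98 in SYT, 21.1, 25 and 23 in YJT and 10.8, 20.1 and 19.8 in YJZYT. All 3 were highest in SYT1, and all 3 were lowest in SYT3, so the SYT group alone spans their range.

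The same libraries stood apart in most markers of late neutrophils. This list holds 10 genes, among them Cxcr2, Mmp8, S100a8, Mmp9 and Ltf, all in the table. Mmp9 went the other way, at 908.6 CPM in SYT1 and 1312 in SYT3. The list score (the median over its tested genes of log2 CPM minus that gene's mean over libraries) was -2.30 in SYT3 and 1.28 in SYT1. It covers 9 genes, since Ltf was too low to test. The summed level of the list ran from 7885 to 12760 CPM in Blank, 6507 to 20810 in Model, 3449 to 37410 in SYT, 11440 to 16620 in YJT and 10950 to 21170 in YJZYT. S100a8 and S100a9 held most of the sum in SYT1, at 12120 and 14730 CPM. Across the 15 libraries, Il1r2 followed this score with Pearson's r = 0.95 and Spearman's rho = 0.89 (permutation p = 1e-05, the smallest that 100000 resamples can give, adjusted p = 0.0001 over 10 relations), and r was 0.83 without SYT1 and SYT3. For Il1b, r was 0.87 and rho 0.78 (permutation p = 3e-05, adjusted p = 0.00015), and r was 0.68 without those libraries. Both relations kept their size with group means removed (r = 0.94 for Il1r2 and 0.88 for Il1b), though for Il1b the adjusted permutation p was then 0.0795. In bulk bone, fewer cells of a type and less RNA per cell cannot be told apart, and the part of the neutrophil content in the group values below was not tested.

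**Figure D2:**
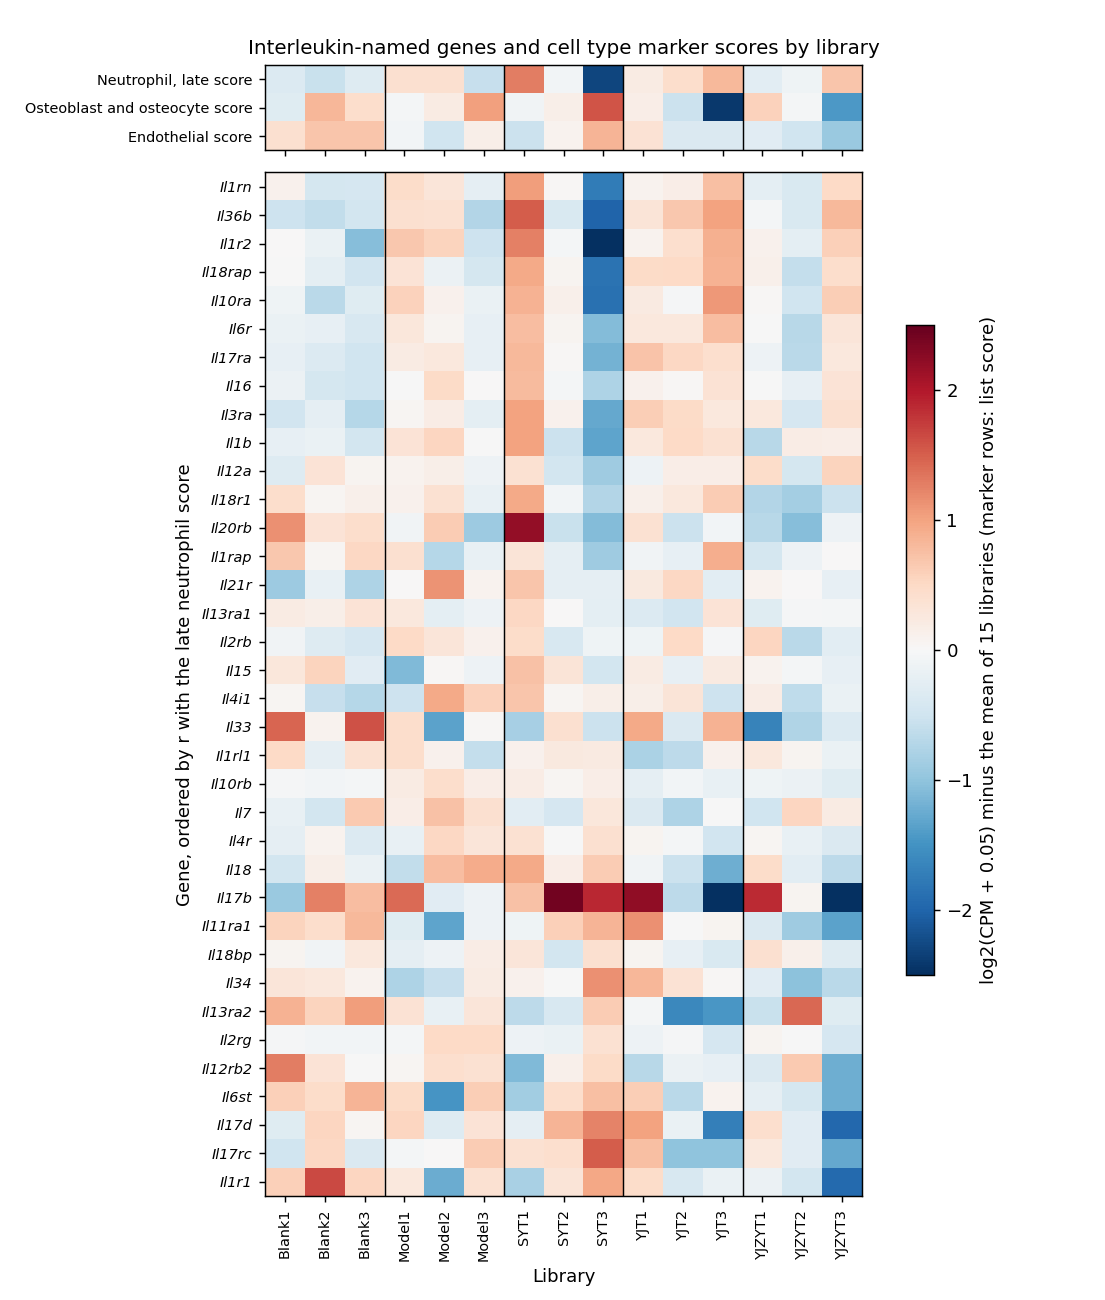
Deviation of log2(CPM + 0.05) from the mean of the 15 libraries for the 36 genes with a mean of at least 1 FPKM, with libraries in columns by group and genes in rows ordered by their correlation with the late neutrophil score. The 3 rows at the top are marker scores. SYT3 is low and SYT1 high for the upper rows, from Il1rn to Il1b, and Il17b has its lowest values in YJT3 and YJZYT3.

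In the heatmap of deviations, libraries of the same group often differ in colour. A wider family of 715 relations, each of 55 genes with each of 13 marker lists, was computed after these values were seen, and 70 passed an adjusted permutation p of 0.05. Late neutrophil markers had 11 positive relations and no negative one. They were strongest for Il1rn (r = 0.97, rho = 0.88, permutation p = 1e-05, adjusted p = 0.00119) and Il36b, an IL-36 ligand (r = 0.97, rho = 0.99, permutation p = 1e-05, adjusted p = 0.00119). Without SYT1 and SYT3 these r values were 0.88 and 0.97. The others were Il1r2, Il18rap, Il10ra, Il6r, Il17ra, Il1b, Il3ra, Il16 and Il22ra2. For Il22ra2, a soluble decoy for IL-22, r was 0.81 with all libraries and 0.43 without SYT1 and SYT3, so that relation rests on those libraries.

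The plots of CPM against marker scores give these relations for 6 genes. A further set followed endothelial markers (7 of 8 listed genes were in the table). The summed level of that list ran from 319.9 to 373.7 CPM in Blank, above all other libraries but 1 of SYT, and from 157.1 to 191 in YJZYT. Il1r1 had r = 0.92 and rho = 0.97 with the endothelial score (permutation p = 1e-05, adjusted p = 0.00119), and r was 0.90 without SYT3 and YJZYT3, the libraries farthest from the median score. Its positive relations with stromal and fibroblast markers and with monocyte and macrophage markers passed as well. Il6st, the gp130 subunit through which IL-6 and IL-11 signal, had r = 0.86 and rho = 0.91 (permutation p = 4e-05, adjusted p = 0.00204), and Il11ra1, the IL-11 receptor, r = 0.83 and rho = 0.79 (permutation p = 0.00016, adjusted p = 0.00545). Without those libraries r was 0.82 for Il6st and 0.76 for Il11ra1. The signs were opposite within the IL-1 system, since Il1r2 had r = -0.73 and rho = -0.74 with the endothelial score (permutation p = 0.00062, adjusted p = 0.0134), and -0.68 without those libraries.

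Skeletal muscle markers (8 of 8 in the table) had a summed level of 3986 to 6168 CPM in Blank, 210.5 to 751.5 in Model, 630.8 to 3654 in SYT, 2969 to 3323 in YJT and 32.43 to 857.6 in YJZYT. Of 55 genes, Il11ra1 and Il34 had a relation with their score that passed. Il11ra1 had r = 0.82 and rho = 0.81 (permutation p = 0.00022, adjusted p = 0.00684), 0.84 without Model2 and YJZYT2, and 0.51 with group means removed. Il34 had r = 0.76 and rho = 0.67 (permutation p = 0.00098, adjusted p = 0.0184), 0.61 without those libraries, and 0.49 with group means removed.

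Erythroid markers (7 of 8 listed genes in the table) had negative relations with Il4r, Il10rb, Il2rg, Il18 and Il17rc and a positive one with Il1a. Il10rb had r = -0.70 and rho = -0.61 (permutation p = 0.00363, adjusted p = 0.0449), -0.50 without Model2 and SYT3, and -0.44 with group means removed. Il4r had r = -0.79 and rho = -0.79 (permutation p = 0.00043, adjusted p = 0.0106), and -0.64 without those libraries. Summed erythroid levels were 3382 to 6058 CPM in Blank, 1504 to 4404 in Model, 1738 to 8213 in SYT, 3267 to 7201 in YJT and 5128 to 9246 in YJZYT.

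Osteoblast and osteocyte markers (10 of 10 in the table) marked the tissue as bone in all libraries, with none at 0 throughout and a summed level of 11940 to 37700 CPM in Blank, 19450 to 48970 in Model, 16380 to 83820 in SYT, 2594 to 26130 in YJT and 3383 to 33010 in YJZYT. Their score had 7 positive relations, with Il17d, Il17rc, Il17b, Il12rb1, Il18, Il2rg and Il4r. All of these but Il4r also passed with the osteoclast list. Il17d and Il17b are ligands of the IL-17 family. For Il17d, r was 0.85 and rho 0.66 (permutation p = 0.00021, adjusted p = 0.00682), and r was 0.62 without YJT3 and YJZYT3. For Il17b, r was 0.83 and rho 0.62 (permutation p = 0.00061, adjusted p = 0.0134), and r was 0.41 without those libraries, so the relation rests on them. Il17b stood at 0.981, 4.66 and 3.33 CPM in Blank, 5.25, 1.57 and 1.76 in Model, 3.23, 10.5 and 7.28 in SYT, 9.09, 1.2 and 0 in YJT and 7.12, 2.01 and 0 in YJZYT. It was listed at 0 in YJT3 and YJZYT3, the libraries with the lowest osteoblast scores (-2.40 and -1.44). Both ligands also followed the osteoclast list (r = 0.88 for each, adjusted permutation p = 0.00238 for Il17d and 0.00715 for Il17b) and the stromal and fibroblast list (r = 0.81 and 0.77, adjusted permutation p = 0.0120 and 0.0428). Spearman's rho was 0.69 and 0.67 for osteoclasts and 0.58 and 0.46 for stroma, and without YJT3 and YJZYT3 r was 0.66 and 0.57, and 0.42 and 0.09. The osteoblast score also had 4 negative relations, with Il1rn, Il6r, Il10ra and Il36b.

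Of the other relations fixed for this family of 10, that of Il2rg with B cell precursor markers passed (r = 0.81, rho = 0.79, permutation p = 0.00038, adjusted p = 0.00127, and r = 0.66 without Model2 and YJT3). So did that of Il2rb, a subunit of the IL-2 and IL-15 receptors, with T and NK cell markers (r = 0.73, rho = 0.64, permutation p = 0.0022, adjusted p = 0.0055, and r = 0.76 without Blank1 and SYT1). The others paired Il21r with B cell precursors, Il18r1 with T and NK cells, Il18 and Il10ra with macrophages, and Il11ra1 and Il34 with osteoblasts. In that order r was 0.44, 0.08, 0.41, -0.57, 0.33 and 0.36, with adjusted permutation p from 0.0541 to 0.771. With group means removed r was 0.5, 0.22, 0.35, -0.53, 0.65 and 0.71, with adjusted permutation p from 0.0557 to 0.591.

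**Figure D3:**
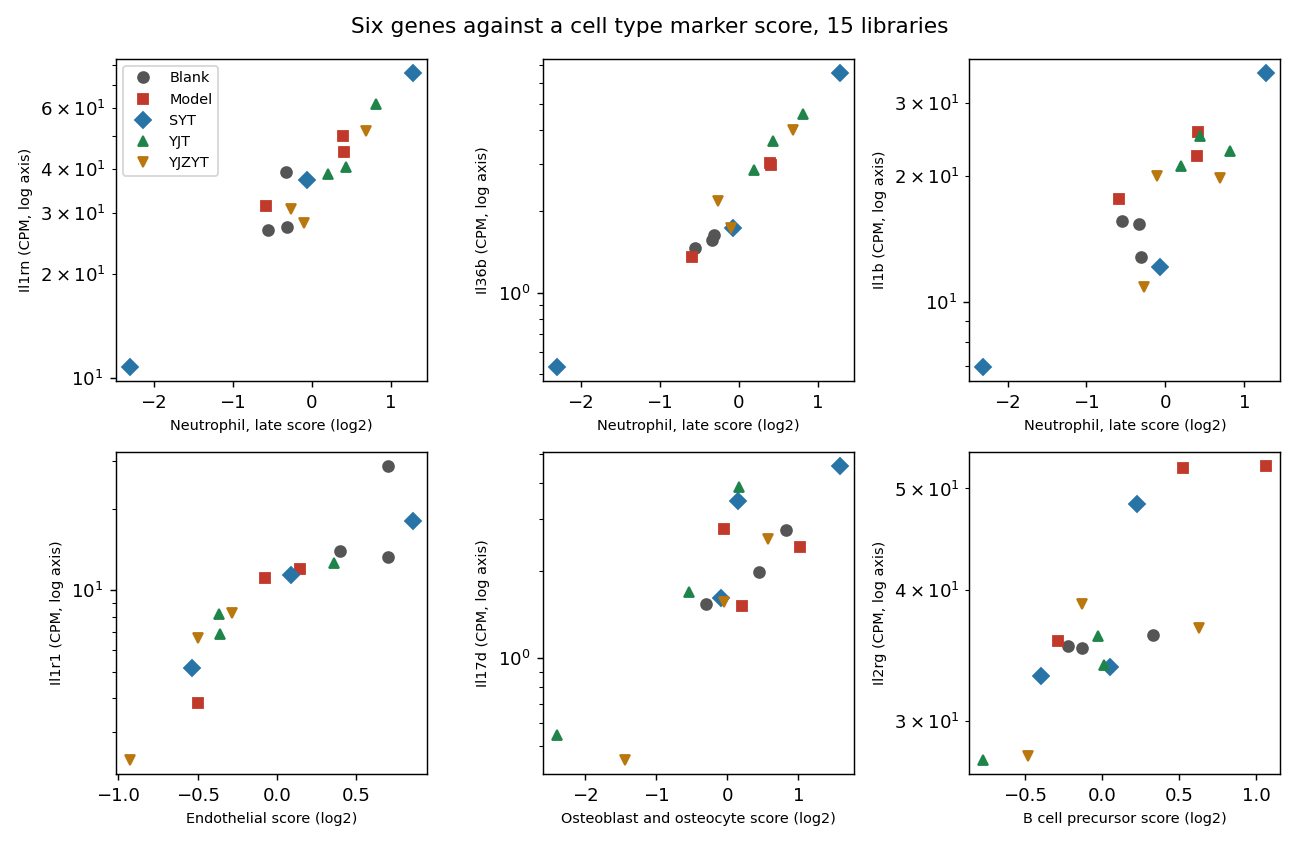
CPM of 6 genes (vertical log axes) against the score of a marker list (horizontal axes, in log2 units), with 1 point for each of the 15 libraries, coloured and shaped by group. Il1rn, Il36b and Il1b are lowest in SYT3, at a late neutrophil score of -2.30, and highest in SYT1 at 1.28, and Il1r1 follows the endothelial score (r = 0.92).

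The promoters of genes of both kinds are shown because Il1b, Il1rn and Il6r followed late neutrophil markers and Il1r1 followed endothelial ones. Each sequence is the 250 bases before the annotated start, from RefSeq on build GRCr8, in the direction of transcription. Capitals mark matches, on either strand, to C/EBP (TTNNGNAA), NF-kappaB (GGG, any 2 bases, then TTTCC), the PU.1 core (GAGGAA) or AP-1 (TGANTCA).
Il1b, chr3:137036582-137036831, minus strand: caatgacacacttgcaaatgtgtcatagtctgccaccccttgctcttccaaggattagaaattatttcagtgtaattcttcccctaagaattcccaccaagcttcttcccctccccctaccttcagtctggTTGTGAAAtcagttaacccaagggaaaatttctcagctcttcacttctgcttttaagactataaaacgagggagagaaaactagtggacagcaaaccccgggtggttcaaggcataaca
Il1rn, chr3:27520072-27520321, plus strand: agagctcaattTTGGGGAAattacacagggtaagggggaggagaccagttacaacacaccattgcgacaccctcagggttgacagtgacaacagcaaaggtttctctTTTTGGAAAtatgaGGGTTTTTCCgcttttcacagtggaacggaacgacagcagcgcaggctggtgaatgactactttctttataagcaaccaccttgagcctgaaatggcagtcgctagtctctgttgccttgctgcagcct
Il6r, chr2:177645210-177645459, minus strand: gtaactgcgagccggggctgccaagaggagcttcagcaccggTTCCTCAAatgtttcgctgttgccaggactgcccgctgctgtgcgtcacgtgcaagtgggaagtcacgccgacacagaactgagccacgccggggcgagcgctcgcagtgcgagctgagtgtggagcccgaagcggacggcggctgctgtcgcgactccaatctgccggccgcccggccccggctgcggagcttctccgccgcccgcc
Il1r1, chr9:50034133-50034382, plus strand: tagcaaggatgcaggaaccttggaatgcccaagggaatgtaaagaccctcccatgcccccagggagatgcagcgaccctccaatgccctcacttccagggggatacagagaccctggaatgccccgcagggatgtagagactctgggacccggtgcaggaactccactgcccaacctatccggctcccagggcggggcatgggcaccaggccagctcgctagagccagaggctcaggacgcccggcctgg

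Il1rn held 3 C/EBP matches and 1 NF-kappaB match, Il1b held 1 C/EBP match, Il6r held 1 C/EBP match overlapping 1 PU.1 core, and Il1r1 held none of the 4 motifs. The same letters did not divide the genes by the markers they followed: Il36b and Il10ra, which followed late neutrophil markers, held none, and Il6st, which followed endothelial ones, held 2 C/EBP matches. Such short motifs occur widely. Among 33469 promoter windows of this length, the C/EBP letters were in 37.2%, the PU.1 core in 23.3%, AP-1 in 6.34% and NF-kappaB in 1.3%. Windows were found for 56 of the 72 genes, 63 in all, and these letters were in 46.0%, 27.0%, 7.94% and 4.76% of them. A match describes the letters of the window and does not show binding.

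Removal of the ovaries was compared with Blank over all tested genes, with edgeR's quasi-likelihood test and Benjamini-Hochberg adjustment over 17657 genes. The adjusted p threshold of 0.05 was passed by 0 of 55 interleukin genes (background 0.0227% of all genes tested, which is 4 genes). At an unadjusted p under 0.05 there were 8 of 55, or 14.5%, against a background of 8.19%. DESeq2 called 0 (background 1.62%) and limma on log2(FPKM + 1) called 0 of 37 (background 0.287%). By mean, 30 of 55 were higher in Model (background 51.7%), with a median log2 fold change of 0.18 against 0.02 over all genes. That median rests on single libraries: it was -0.11 without Model1, 0 without Blank1, 0.03 without Blank3, 0.05 without Model3 and 0.32 without Blank2. All 3 Model libraries lay above all 3 Blank libraries for 8 genes (14.5%, background 7.69%) and below them for 6 (10.9%, background 7.99%).

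Il21r, the IL-21 receptor of lymphocytes (chromosome 1, 196996581 to 197024166), had the smallest unadjusted p. It stood at 21.4, 35.2 and 23.5 CPM in Blank, 40.2, 87.2 and 42.7 in Model, 65.3, 34.3 and 34.4 in SYT, 47.3, 57.4 and 33.5 in YJT and 42.8, 40.4 and 34.9 in YJZYT. Every Model library was above every Blank library, with Model2 above the others at 87.2 CPM. The log2 fold change was 1.09 (SE 0.34, edgeR adjusted p = 0.390), and over the alternatives it ran from 0.64 to 1.35. Of 12 B cell precursor markers, all 12 had a higher mean in Model, and their summed level was 634 to 1657 CPM there against 628.7 to 890.6 in Blank. Model1, at 634, lay below Blank1 at 890.6 and Blank2 at 735.2. Il21r had r = 0.44 with the score of these markers, and 0.06 without Model2 and YJT3. The part of B cell precursors in the Il21r values was not tested.

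Il23a, which pairs with Il12b to form IL-23, an interleukin that supports IL-17 producing cells, stood at 0.188, 0.578 and 0.344 CPM in Blank, 0.59, 1.57 and 1.58 in Model, 1.06, 0.994 and 1.3 in SYT, 1.45, 1.38 and 0.868 in YJT and 1.23, 0.454 and 0.516 in YJZYT. Blank1 and Blank3 were the lowest of all libraries, every Model library lay above Blank2, and YJZYT2 and YJZYT3 lay below it. The log2 fold change of Model over Blank was 1.75 (SE 0.55, edgeR adjusted p = 0.390). Il12b itself was left out as too low. Il4, the ligand that restrains osteoclasts, had 0 counts in all Blank libraries and 6, 21 and 0 counts in Model (edgeR adjusted p = 0.458). Against a floor of 3 counts over the Blank group, which covers counting error only, Model was 9.11-fold higher. Of the 27 Model counts, 21 came from Model2, and without it the value was 3.02-fold.

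Il11ra1 (chromosome 5, 58151985 to 58159072) was the gene lower in Model with the smallest p. It stood at 9.53, 8.78 and 11.4 CPM in Blank, 5.22, 2.56 and 5.96 in Model, 6.05, 9.81 and 11.8 in SYT, 14.4, 6.45 and 6.79 in YJT and 5.02, 3.47 and 2.55 in YJZYT. All Model libraries were below all Blank libraries, with a log2 fold change of -1.11 (SE 0.40, edgeR adjusted p = 0.461). The endothelial markers that it followed were lower as well, at 152.9 to 299.1 CPM in Model. So were the skeletal muscle markers that it followed, lower by mean in Model in 8 of 8 genes (median log2 fold change -3.05, 8 at an unadjusted p under 0.05 and 0 past the adjusted threshold in edgeR). The part of either cell type in the Il11ra1 values was not tested. Il10rb, the subunit shared by the IL-10 and IL-22 receptors, stood at 26, 25.3 and 25.7 CPM in Blank, 30.8, 35.9 and 29.9 in Model, 30.1, 27.4 and 30.0 in SYT, 22.8, 25.3 and 23.4 in YJT and 24.8, 23.9 and 21.6 in YJZYT. The Model libraries lay above those of Blank, but by a log2 fold change of only 0.33 (SE 0.12, edgeR adjusted p = 0.475).

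Il1r1 and Il33 were lower in mean after ovariectomy. Il1r1 stood at 14, 28.8 and 13.3 CPM in Blank, 11.1, 3.83 and 12 in Model, 5.19, 11.4 and 18.1 in SYT, 12.6, 6.93 and 8.15 in YJT and 8.25, 6.66 and 2.36 in YJZYT, and Blank and Model did not overlap (log2 fold change -1.06, SE 0.56, adjusted p = 0.692 in edgeR). Il33, an alarmin stored in the nuclei of stromal and endothelial cells, stood at 11.5, 4.41 and 12.6 CPM in Blank, 5.66, 1.6 and 4.26 in Model, 2.31, 5.5 and 2.85 in SYT, 8.09, 3.2 and 7.66 in YJT and 1.26, 2.44 and 3.26 in YJZYT, with a Model log2 fold change of -1.31 (SE 0.57, edgeR adjusted p = 0.569). Blank2 overlapped the Model libraries. Endothelial, stromal and macrophage markers, all followed by Il1r1, were lower by mean in Model in 7 of 7, 9 of 10 and 7 of 10 genes. In these lists 2, 1 and 1 genes had an unadjusted p under 0.05 in edgeR, and 0 passed the adjusted threshold. The part of these cell types in the Il1r1 and Il33 values was not tested. The inflammatory ligand Il1b had Model values above Blank in all 3 libraries, yet the log2 fold change of 0.58 (SE 0.44) gave an edgeR adjusted p of 0.821.

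The ratio of the decoy to the signalling IL-1 receptor varied widely. In FPKM, Il1r2 over Il1r1 was 6.44, 2.75 and 3.18 in Blank (4.12 ± 2.02, SD, n = 3) and 12.8, 34.2 and 5.18 in Model. The highest library was YJZYT3 at 56.8 and the lowest SYT3 at 0.817, and the SD within the 4 ovariectomized groups ran from 6.65 to 26.2. The late neutrophil score, which Il1r2 followed, was 0.69 in YJZYT3 and -2.30 in SYT3. The endothelial score, which Il1r1 followed, was -0.93 and 0.86. The part of these cell types in the ratio was not tested. Il1rn over Il1b was steadier, from 0.952 to 2.10 with a median of 1.46. Il18bp over Il18 ran from 0.611 in Model2 to 2.09 in YJT3.

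The other key genes had the following Model minus Blank log2 fold changes, none of which passed: Il1a -1.10, Il1r2 0.66, Il1rn 0.43, Il18 0.65, Il18bp -0.13, Il6r 0.31, Il6st -0.51, Il7 0.37, Il15 -0.56, Il34 -0.56, Il6 -2.64 and Il11 0.80. For Il6 the counts were 0, 26 and 20 in Blank and 0, 7 and 0 in Model, and the SE of 1.86 left its direction unresolved. Il7, which supports B cell precursors and has been linked to bone loss after ovariectomy, stood at 2.53, 2.1 and 4.56 CPM in Blank, 3.25, 4.85 and 3.81 in Model, 2.38, 2.16 and 3.53 in SYT, 2.25, 1.67 and 2.86 in YJT and 2.04, 4.21 and 3.35 in YJZYT, with overlapping groups.

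Setting all 4 ovariectomized groups together against Blank gave 0 of 55 calls by edgeR (background 0.017%), 10 of 55 at an unadjusted p under 0.05 (18.2%, background 11.4%), and 1 by DESeq2 (background 1.98%). By mean, 30 of 55 were higher than Blank (background 49%). The DESeq2 call was Il23a (log2 fold change 1.52 in both tools, DESeq2 adjusted p = 0.0347, edgeR SE 0.48 and adjusted p = 0.257), whose adjusted p ran up to 0.898 over the alternatives. Il33 had a log2 fold change of -1.34 (SE 0.41, edgeR adjusted p = 0.243). Il5ra, the receptor of eosinophils and basophils for IL-5, had -1.16 (SE 0.42, edgeR adjusted p = 0.316), from 1.25, 0.969 and 2.19 CPM in Blank, 0.885, 0.857 and 0.23 in Model, 1.65, 0.839 and 0.694 in SYT, 0.252, 0.333 and 0.575 in YJT and 0.52, 0.619 and 0.899 in YJZYT. Il21r had 0.79 (SE 0.28, edgeR adjusted p = 0.315). Il4 was 9.43-fold higher against a floor of 3 counts over the Blank group (edgeR adjusted p = 0.315). In Model3, YJT1 and YJT3 it was listed at 0, as in all Blank libraries. No gene had all 12 ovariectomized libraries on one side of all 3 Blank libraries (background 0.753% above and 0.748% below).

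The treated groups were each set against Model, and these comparisons share the same 3 Model libraries. None of 55 genes passed in any of them with edgeR (background 0% in each). At an unadjusted p under 0.05 there were 2 in SYT (3.64%, background 3.16%), 4 in YJT (7.27%, background 6.58%) and 4 in YJZYT (7.27%, background 7.29%), shares near the background. DESeq2 called 0 in SYT (background 0.135%), and Il10rb alone in YJT (background 0.479%) and in YJZYT (background 0.332%). Higher than Model by mean were 29 of 55 genes in SYT, 29 in YJT and 19 in YJZYT, against 53.2%, 48.2% and 42.3% of all genes. When only library totals set the scale, the median of all genes moved from 0.02 to -0.22 in SYT and from -0.07 to -0.22 in YJZYT, and the counts higher were then 13, 25 and 12. In YJZYT the count was 28 of 57 without Model1, with a median of 0 over all genes. The share of all genes higher was not taken for these alternatives, so their counts have no background.

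All 3 treated libraries lay above all 3 Model libraries for 2 genes in SYT (3.64%, background 3.24%), 5 in YJT (9.09%, background 6.83%) and 1 in YJZYT (1.82%, background 7.35%). They lay below for 0 in SYT (background 2.65%), 3 in YJT (5.45%, background 4.92%) and 3 in YJZYT (5.45%, background 5.57%).

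The skeletal muscle markers that Il11ra1 and Il34 followed were higher by mean than in Model in 8 of 8 genes in SYT (median log2 fold change 2.27, 6 at an unadjusted p under 0.05) and in 8 of 8 in YJT (2.55, 6 at that threshold), and lower in 7 of 8 in YJZYT (-0.62, 0 at that threshold), with 0 past the adjusted threshold in edgeR. The erythroid markers that Il10rb, Il4r, Il2rg and Il18 followed inversely were higher in 7 of 7 in each group, with medians of 0.61 in SYT, 0.97 in YJT and 1.35 in YJZYT (0, 1 and 6 at that threshold, and 0 past the adjusted one). Their part in the values of those genes was not tested.

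In SYT, Il11ra1 was above every Model library (log2 fold change 1.01, SE 0.40, edgeR adjusted p = 1), at 6.05, 9.81 and 11.8 CPM against 5.22, 2.56 and 5.96. That separation depends on the TMM scaling. In FPKM, SYT1 at 2.487 lay below Model1 at 2.93 and Model3 at 3.305, and its count of 330 lay below their 372 and 441. Il34, a ligand of the receptor that also binds the macrophage factor Csf1, stood at 2.98, 2.91 and 2.54 CPM in Blank, 1.38, 1.59 and 2.77 in Model, 2.6, 2.39 and 5.39 in SYT, 4.31, 3.1 and 2.44 in YJT and 1.98, 1.16 and 1.48 in YJZYT and had a log2 fold change of 0.86 (SE 0.39, edgeR adjusted p = 1). Il15 and Il7 had 0.62 and -0.56, both with an edgeR adjusted p of 1. Il6 had 0, 7 and 0 counts in Model and 9, 11 and 24 in SYT (edgeR adjusted p = 1), and its fitted log2 fold change of 2.75 ran from 2.23 to 6.98 over the alternatives.

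In YJT, Il10rb was below every Model library, at 22.8, 25.3 and 23.4 CPM against 30.8, 35.9 and 29.9. Its log2 fold change was -0.44 (SE 0.12, edgeR adjusted p = 0.730), and DESeq2 gave -0.43 with an adjusted p of 0.0227, in a range of 0.0227 to 0.986 over the alternatives. Il2rg had -0.53 (SE 0.20, edgeR adjusted p = 0.746), and all 12 B cell precursor markers were lower in mean than in Model. The osteoblast and osteoclast markers that Il2rg also followed were lower in mean in 10 of 10 and 8 of 8 genes. The part of any of these cell types in the Il2rg values was not tested. Il11ra1 had 1.01, Il18 -1.06 and Il7 -0.81, with edgeR adjusted p of 0.746, 0.746 and 0.758. Il18 stood at 3.12, 4.76 and 3.8 CPM in Blank, 2.77, 7.33 and 8.2 in Model, 8.27, 4.81 and 6.64 in SYT, 4.03, 2.93 and 1.8 in YJT and 5.9, 3.55 and 2.7 in YJZYT, and its Model and YJT ranges overlapped.

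In YJZYT, Il10rb was again below every Model library (log2 fold change -0.46, SE 0.12, edgeR adjusted p = 0.638). DESeq2 gave -0.44 with an adjusted p of 0.0171, in a range of 0.0171 to 1. Since both comparisons use the same Model libraries, their likeness is not separate support. Il11 had 0 counts in all YJZYT libraries and 17, 18 and 12 in Model (edgeR adjusted p = 0.649). Against a floor of 3 counts over the YJZYT group, Model was 14.5-fold higher. That floor covers counting error only and does not bound the true difference. Il11 was at 0 in 7 of 15 libraries, Blank1, Blank3, YJT2 and YJT3 among them, so zeros were not particular to YJZYT. Il18r1, the IL-18 receptor subunit, stood at 6.36, 4.87 and 5.11 CPM in Blank, 5.07, 6.08 and 4.13 in Model, 9.13, 4.46 and 2.8 in SYT, 5.11, 5.63 and 7.35 in YJT and 2.81, 2.56 and 3.23 in YJZYT and had -0.83 (SE 0.36, edgeR adjusted p = 0.654). Every YJZYT value was below every Model value. Il2rg had -0.44 and Il4r -0.40, with edgeR adjusted p of 0.676 and 0.701.

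Between the treated groups, edgeR called 0 of 55 in each of the 3 pairs (background 0%), and DESeq2 also 0 (background 0.0356% for SYT against YJT, 2.1% for YJZYT against YJT and 1.51% for YJZYT against SYT). At an unadjusted p under 0.05 there were 3 for SYT against YJT (5.45%, background 3.05%), 6 for YJZYT against YJT (10.9%, background 6.39%) and 5 for YJZYT against SYT (9.09%, background 9.1%). Il11ra1 was lower in YJZYT than in YJT (log2 fold change -1.32, edgeR adjusted p = 0.324) and than in SYT (-1.33, adjusted p = 0.402). By mean, 29 of 55 genes were higher in SYT than in YJT (background 51.4%) and 18 in YJZYT than in YJT (background 49.1%). In YJZYT against SYT, 14 were higher (background 45.6%), and 23 when only library totals set the scale. That scaling moved the median of all genes from -0.04 to 0.06, and that of the interleukin genes from -0.17 to -0.04. The count of 14 rests on SYT1, without which it was 28 of 55, with a median of 0.03 over all genes. For these alternatives the share of all genes higher was not taken. A test of any difference among the 5 groups called 0 with edgeR (background 0.0227%) and 6 at an unadjusted p under 0.05 (10.9%, background 7.71%). DESeq2 called Il11ra1 and Il10rb in that test (background 3.32%), for which edgeR gave adjusted p of 0.454 and 0.445.

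**Figure D4:**
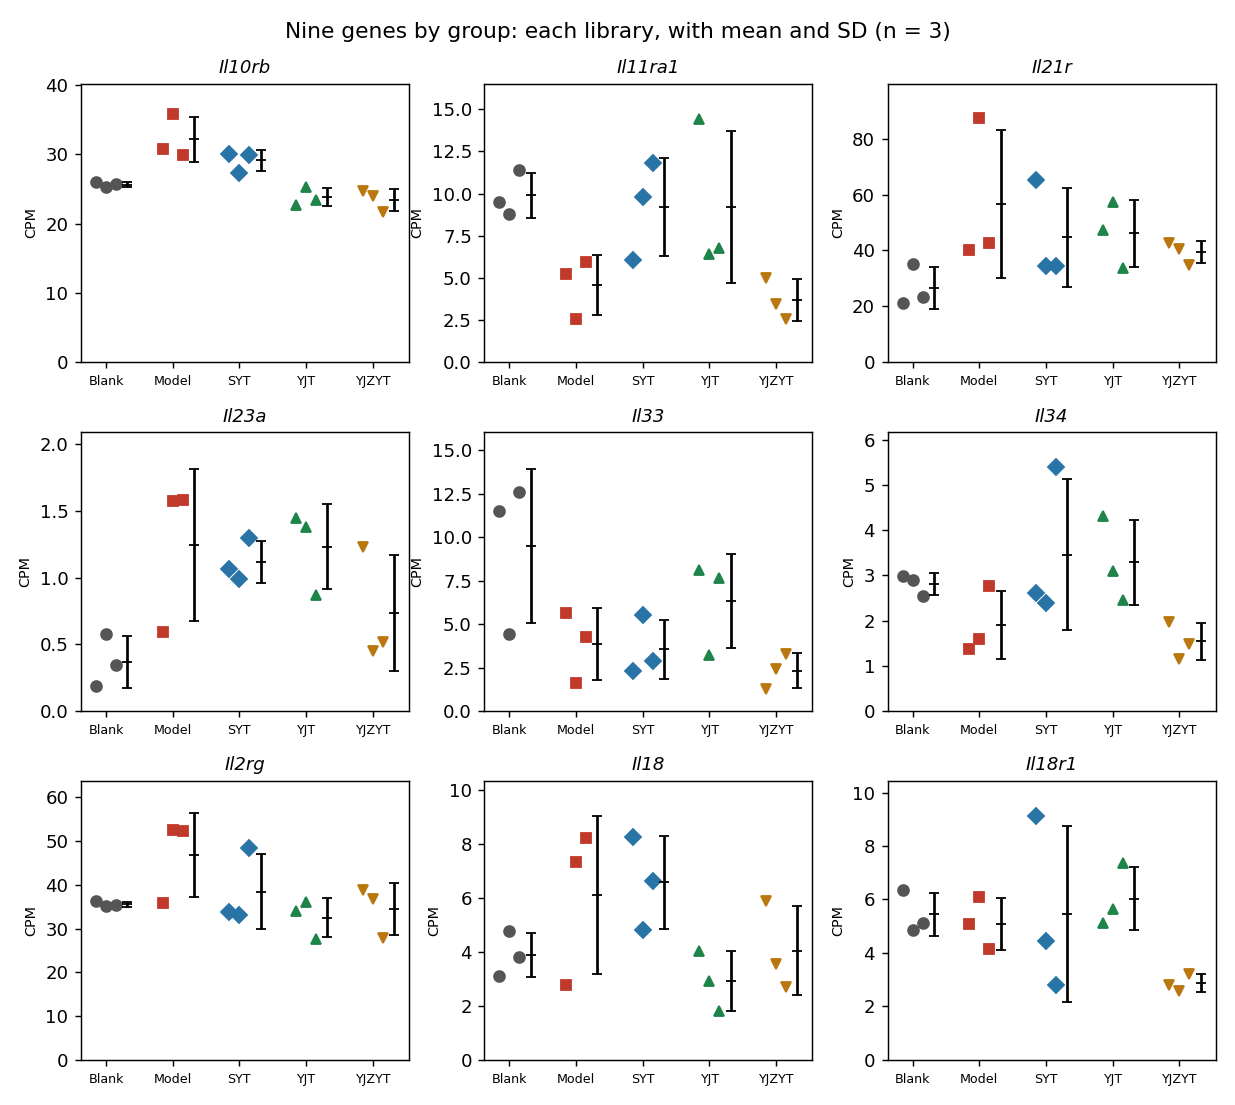
CPM (vertical axes from 0) of 9 genes in the 5 groups, with a point for each library and, beside it, the group mean with its SD (n = 3). Il11ra1 is lowest in Model and YJZYT (4.58 and 3.68 CPM in mean), and Il10rb is highest in Model (32.2 CPM).

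The plot of group means shows how narrow the Il10rb differences are: its means were 25.6 ± 0.344 CPM in Blank, 32.2 ± 3.21 CPM in Model, 29.1 ± 1.56 CPM in SYT, 23.8 ± 1.31 CPM in YJT and 23.4 ± 1.64 CPM in YJZYT (SD, n = 3). For Il11ra1 they were 9.89 ± 1.34 CPM in Blank, 4.58 ± 1.79 CPM in Model, 9.22 ± 2.92 CPM in SYT, 9.22 ± 4.51 CPM in YJT and 3.68 ± 1.25 CPM in YJZYT (SD, n = 3). SYT and YJT had means near that of Blank, and their libraries spread from 6.05 to 14.4 CPM. Skeletal muscle markers were likewise higher in Blank and YJT than in Model and YJZYT, library by library. In SYT their summed level ran from 630.8 to 3654 CPM, with SYT1 below Model1 at 677.5 and Model3 at 751.5. The part of muscle in the Il11ra1 values was not tested.

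Genes that act with interleukins were counted from 3 lists of 17 tested genes each, and 0 passed with edgeR in Model against Blank, in each treated group against Model, in the ovariectomized mean against Blank and in the test of all groups. The counts below are to be read against all genes tested. Of those, 51.7% were higher by mean in Model than in Blank, and 42.3% in YJZYT than in Model. An unadjusted p under 0.05 in edgeR was reached by 8.19% and 7.29% of them. Among receptor partners and related ligands, 8 were higher and 9 lower by mean in Model than in Blank, 1 of them at an unadjusted p under 0.05. Osm, a gp130 ligand made by myeloid cells, stood at 8.33, 8.72 and 5.71 CPM in Blank, 40.7, 41.4 and 12.8 in Model, 36.3, 7.39 and 5.27 in SYT, 21.6, 15.8 and 16.3 in YJT and 8.86, 7.02 and 12.6 in YJZYT, with Model above Blank throughout (log2 fold change 2.06, SE 0.63, edgeR adjusted p = 0.378). In YJZYT against Model, 15 of 17 were lower in mean, Osm by a log2 fold change of -1.74 (SE 0.63, edgeR adjusted p = 0.638). Of the JAK, STAT and SOCS genes, through which most of these receptors signal, 8 were higher and 9 lower by mean in Model than in Blank (3 at an unadjusted p under 0.05), and 4 were higher and 13 lower in YJZYT than in Model (0 at that threshold). Of the IL-1, inflammasome and IL-17 signalling genes, 11 were higher and 6 lower by mean in Model than in Blank (2 at that threshold), and 4 were higher and 13 lower in YJZYT than in Model (1 at that threshold). Irak4, a kinase that carries the signal of IL-1 receptors, had a log2 fold change of 0.74 (SE 0.19, edgeR adjusted p = 0.307), from 13.7, 13 and 10.5 CPM in Blank, 18.8, 22.6 and 20.9 in Model, 22.4, 14 and 20.1 in SYT, 18.4, 15.2 and 16.4 in YJT and 15.4, 13.6 and 12.3 in YJZYT. Nfkbia, the inhibitor of NF-kappaB, was lower in every ovariectomized library but YJT1 than in the Blank libraries, at 77.3, 92.1 and 78.4 CPM in Blank, 55.5, 46.9 and 61.9 in Model, 64.9, 41.9 and 50.1 in SYT, 78, 55.8 and 37.3 in YJT and 44.5, 40.4 and 29.2 in YJZYT (ovariectomized mean minus Blank -0.73, SE 0.19, edgeR adjusted p = 0.194).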

How the data were processed

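RNA was selected on oligo(dT), strand-marked with dUTP, ligated to adapters with molecular identifiers and read as paired ends on a NovaSeq, per the labels' protocols. Tools named without a role in the submitters' processing notes are HISAT2 2.0.4, StringTie 1.3.4d, cutadapt 1.9, UMI-tools, edgeR and DESeq2. Build, counting step and strand setting: not given in the sources used here, so that overlapping genes and near-identical copies may share reads (LOC100360218 is also described as Il13ra1). The deposited table holds whole-number counts and FPKM values, both made by the authors per the file headers, for each gene and library. Groups came from the labels.

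Counts were tested with edgeR 4.0.16 in R 4.3.3: filterByExpr, TMM factors and a robust quasi-likelihood fit of a mean per group over the 15 libraries (10 residual degrees of freedom), in 8 two-sided contrasts and 1 test over all groups, with Benjamini-Hochberg adjustment over 17657 genes. The standard error is the size of the log2 fold change divided by the root of F. The script was checked on simulated counts. Marker relations used log2 CPM with a prior count of 2 and 100000 permutations (SciPy 1.17.1); 2 of 12 planned relations, those of Il7r, were not computed. Floors of 3 counts cover counting error only. Alternatives were RLE factors, no scaling, no filter, a mean of 1 FPKM, DESeq2 1.42.0, limma 3.58.1 on log2(FPKM + 1) and log2(FPKM + 0.1), only the compared libraries, the replicate number as a block, left-out libraries, and a 2-fold change at an unadjusted p under 0.05.

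The named genes were the 5 of smallest p in each of 5 comparisons, the 10 highest by FPKM and 18 key members, of which Il7r and Il17a are not analysed here; others are examples chosen after their values were seen. The members and lists were chosen with earlier results of these data known.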

Additional observations from a re-analysis of the deposited data

How the results depend on the processing

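Of 622 checks of the named fold changes over the alternatives, 619 kept their direction and side of the threshold, 3 passed it with DESeq2 and none reversed. Of the counts of called genes and the marker relations, 243 checks stayed the same, 12 counts moved, and of the relations 3 lost the threshold, 1 gained it and 1 reversed, all given below. With edgeR no gene passed when any 1 of the 15 libraries was left out (0 to 0 genes over 135 checks), nor without YJT3 and YJZYT3, nor without SYT3, YJT3 and YJZYT3, the last chosen after seeing the data. DESeq2 called 1 gene in YJT against Model (0.479% of all genes with an adjusted p), 1 in YJZYT against Model (0.332%), 1 in the ovariectomized mean against Blank (1.98%) and 2 over all groups (3.32%), and the cause was not tested. It called 301 genes of the whole table in Model against Blank, where edgeR called 4. An unadjusted p under 0.05 with a 2-fold change gave 5 interleukin genes of 55 in Model against Blank (9.09%, against 3.89% of all genes), 1 in SYT (1.82%, 1.83%), 2 in YJT (3.64%, 3.38%) and 1 in YJZYT against Model (1.82%, 2.87%), and 6 in the ovariectomized mean against Blank (10.9%, 4.56%). Between treated groups it gave 2 for SYT against YJT (3.64%, 1.53%), 6 for YJZYT against YJT (10.9%, 4.49%) and 3 for YJZYT against SYT (5.45%, 5.09%). With group means removed, r was 0.77 for Il2rg (adjusted permutation p = 0.0557), 0.77 for Il2rb (0.0795) and 0.88 for Il1b (0.0795). Without the 2 farthest libraries, r reversed from 0.08 to -0.10 for Il18r1 with T and NK cells and was -0.71 for Il10ra with macrophages (adjusted permutation p = 0.838 and 0.0130), and the cause was not tested.

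The replicate numbers did not pair the libraries: of 30 same-numbered pairs 9 had a correlation of deviations over 0.1 (median -0.018), and 5 of 15 libraries correlated best with their own number. With the replicate number as a block, 0 interleukin genes passed in every comparison. In Model against Blank, 7 of 55 were then at an unadjusted p under 0.05, against 8 without the block. The share of all genes was not taken for that fit, so the 7 cannot be set against a background. Of 1080 values of gene and library, 220 were at 0 and 17 were 1 to 3 counts. Il11 was at 0 or at 12 counts or more in every library, so a floor of 3 counts does not bound its level. Changes in the scarce ligands Il4, Il6, Il10 and Il11 were not resolved in these libraries.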
